A study of Mus musculus with 18 samples.

Results

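Retina from Abca4 knockout mice (KO, genotype Abca4-/-) was set against retina from wild-type mice (WT). The genes described are the 14699 of 22558 in the retinal table that passed a filter on low fragment counts, measured in 3 KO and 3 WT libraries of the 18 in the series. The same study sequenced retina from homozygous Abca4 L541P;A1038V knock-in mice (KI, 3 libraries) and the RPE/choroid of all genotypes (retinal pigment epithelium with the vascular layer behind it, 3 libraries each). All mice were 30 days old and of mixed 129SV and C57BL/6 background. The labels say nothing of the construct that removed Abca4 or of how many mice gave a library, so p-values measure the spread between these libraries. KI libraries entered the fit so that the 9 retinal libraries share 1 estimate of the spread.

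ABCA4 is a lipid flippase of the disc rims in rod and cone outer segments. It moves retinaldehyde bound to phosphatidylethanolamine to the cytoplasmic side of the disc, where retinaldehyde is reduced and re-enters the visual cycle. Without it, retinaldehyde adducts form bisretinoids, which the RPE takes up with shed discs and stores as lipofuscin, and loss of the human gene causes Stargardt macular dystrophy.

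KO libraries held 13595018 to 21663347 fragments over all genes of the table and WT libraries 11553291 to 15758015. The deposited tables number the libraries of a genotype 0, 1 and 2, and values are given in that order throughout. Markers of retina were present in all 6 libraries, among them Glul of Müller glia and Gnat1 of rods, whose values are given below. By Xist and Ddx3y, KO library 0 and WT libraries 0 and 1 were male and the other 3 female. All 3 KI retinal libraries were female, and all KO and WT RPE/choroid libraries were male. The 20 lens genes measured summed to 721, 7673 and 15641 FPKM in KO retina and 1126, 332 and 61.3 FPKM in WT retina, so KO libraries 1 and 2 hold far more lens transcripts than the other 4. Their mean log2 CPM (counts scaled to library size) was 3.13, 6.24 and 6.72 in KO and 3.82, 2.18 and 0.391 in WT retina. In KI retina it was 5.99, 3.09 and 3.36, highest in library 0. Since whole tissue was sequenced, fewer cells of a type and less RNA per cell cannot be told apart in any value below.

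Abca4 itself fell in KO retina but was still detected. It stood at 81.8, 80.3 and 73.9 FPKM in KO, against 282, 251 and 228 FPKM in WT retina, with no overlap (log2 -1.68, SE 0.0806, adjusted p = 4.32e-08), which left 31.0% of the WT mean. Fragments were counted over the whole gene (chr3:121747378-121882979 in mm9, the build of the files), so these values do not show which exons the remaining fragments cover. The call held without each single library. Abca4 also stood at 26.1 ± 0.490 FPKM in KO and 44.4 ± 13.1 FPKM in WT RPE/choroid (log2 -0.79, SE 0.169, adjusted p = 0.102), and in KI retina at 204 ± 25.8 FPKM (log2 -0.30 against WT, adjusted p = 0.186).

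KO retina differed from WT retina in 144 genes (0.980% of those tested, adjusted p under 0.05), 71 higher (0.483%) and 73 lower (0.497%). Adjusted p-values are from edgeR's quasi-likelihood test with Benjamini-Hochberg adjustment over all 14699 genes. For scale, 12.5% of all tested genes had an unadjusted p under 0.05 and DESeq2 called 2.23%. Of the 144 genes, 68 moved by less than 1.5-fold, 40 rose and 36 fell at least 1.5-fold, 27 rose and 19 fell at least 2-fold, and 7 rose and 0 fell at least 4-fold. Most called genes were protein coding (140), and 10 had a mean FPKM (fragments per kilobase of transcript, scaled to depth) under 1 in both genotypes. KO libraries lay above all WT libraries in FPKM for 68 of the called genes and below them for 70, where 6.66% and 5.17% of all tested genes did so. The calls were made on the same libraries, so this separation largely follows from the choice of genes and adds no support. Fewer calls were made without 1 library than with all 6 for every library but KO 0: 59 without KO library 1, 82 without KO 2, 60 without WT 0, 53 without WT 1 and 103 without WT 2, and 253 without KO 0. Of the 144 genes, 37 kept their call without each single library (16 higher, 21 lower) and none changed sign.

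**Figure D1:**
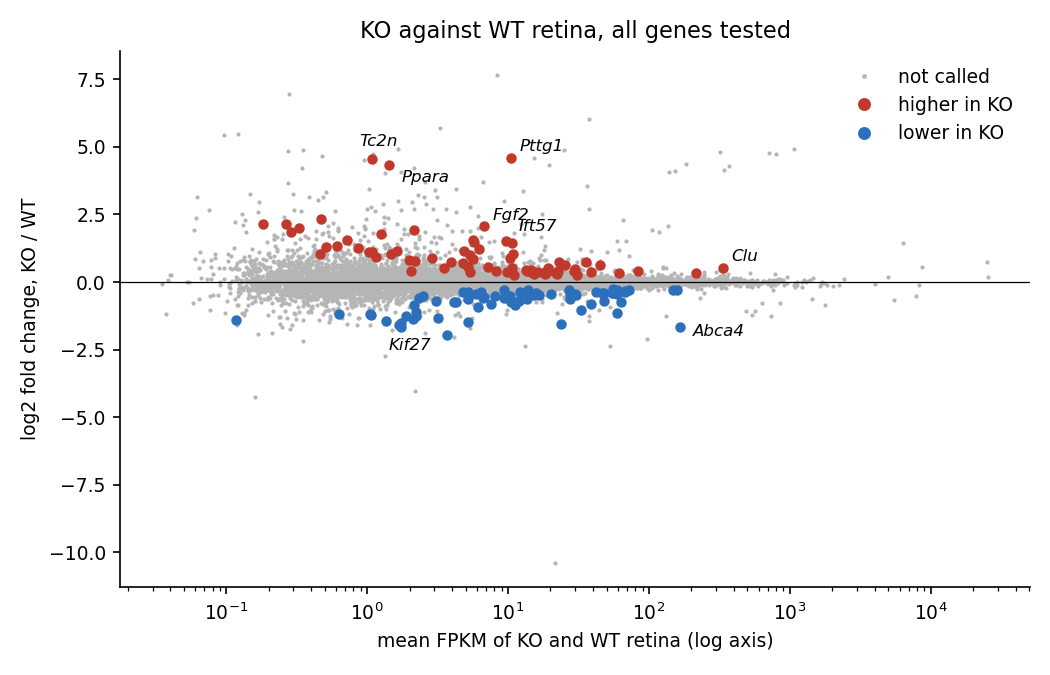
Log2 fold change of KO over WT retina (y axis) against the mean FPKM of KO and WT libraries (x axis, log scale) for all 14699 genes tested; red and blue points are the 71 genes called higher and the 73 called lower in KO, grey points those not called. The largest called rises are further from 0 than the largest called falls.

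The clearest single rise was that of Ppara, the nuclear receptor that turns on fatty acid oxidation genes. It stood at 2.82, 2.91 and 2.50 FPKM in KO, against 0.121, 0.155 and 0.126 FPKM in WT retina. The change was log2 4.32, SE 0.159, adjusted p = 2.29e-09. The fitted rise was 20.0-fold, and the KO libraries were close to each other. KI retina stood at 0.164 ± 0.0188 FPKM (log2 0.26 against WT, adjusted p = 0.836). Ppara also stood at 3.16 ± 0.387 FPKM in KO and 2.46 ± 0.175 FPKM in WT RPE/choroid, with a change of log2 0.35, SE 0.0823, adjusted p = 0.115. The effect of the knockout differed between the tissues (log2 3.96, SE 0.164, adjusted p = 6.97e-10).

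Genes that PPARA activates did not move with it as a group. Of 40 tested genes of PPARA targets and fatty acid oxidation, 0 rose by edgeR and 1 fell (median log2 0.027, against -0.0032 for all genes tested); 6 had an unadjusted p under 0.05, and DESeq2 called 2 higher and 1 lower. The member that fell was Cd36, a fatty acid uptake receptor that RPE and vessels also use, at 0.656, 0.660 and 0.570 FPKM in KO, against 1.23, 1.19 and 1.95 FPKM in WT retina. Its fitted change was log2 -1.17, SE 0.198, adjusted p = 0.0112. Of the 13 PPAR receptors and coactivators tested, Ppara alone was called.

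Fgf2, a growth factor that protects photoreceptors when supplied to injured retina, rose in every KO library. It stood at 14.2, 9.89 and 8.42 FPKM in KO, against 2.64, 3.22 and 2.14 FPKM in WT retina (log2 2.06, SE 0.248, adjusted p = 8.79e-04), and the highest KO value was in library 0. Nudt6, which is transcribed from the opposite strand beside Fgf2, stood at 11.6, 6.98 and 6.57 FPKM in KO, against 3.47, 2.59 and 2.47 FPKM in WT retina. This gave log2 1.56, SE 0.213, adjusted p = 0.00224. Whether the counting used the strand is not given in the sources used here, so reads of these neighbours may not be cleanly split. Of 22 fibroblast growth factors, receptors and feedback genes tested, 2 rose and 0 fell (median log2 0.066). The second was Spry2, an inhibitor that FGF signalling induces, at 33.7, 35.1 and 36 FPKM in KO, against 27.3, 27.0 and 20.5 FPKM in WT retina (log2 0.48, adjusted p = 0.0482), a call lost without any 1 of the 6 libraries (highest adjusted p = 0.169). The receptor Fgfr1 stood at 5.08, 6.22 and 5.70 FPKM in KO, against 3.22, 4.05 and 4.42 FPKM in WT retina; its groups do not overlap but it did not pass (log2 0.56, adjusted p = 0.264). Etv5, a transcription factor that FGF signalling induces, stood at 15.4, 15.8 and 14.3 FPKM in KO, against 11.8, 11.8 and 13.2 FPKM in WT retina (adjusted p = 0.216), and the feedback genes Spry1, Spry4 and Dusp6 were not called.

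Several other rises were large against the spread between libraries. Pttg1, which encodes securin, the inhibitor of separase until anaphase, stood at 14.1, 13.4 and 33.5 FPKM in KO, against 1.01, 0.515 and 0.751 FPKM in WT retina. The test gave log2 4.60, SE 0.556, adjusted p = 0.0101. Its level was highest in KO library 2, and its call was lost without WT library 0, WT library 1 or WT library 2 (highest adjusted p = 0.0811). Tc2n, a C2 domain protein, stood at 1.08, 1.49 and 3.63 FPKM in KO, against 0.0473, 0.0296 and 0.184 FPKM in WT retina (log2 4.56, SE 0.496, adjusted p = 5.35e-04), also highest in KO library 2. Ift57, a subunit of the complex that carries cargo along the cilium, stood at 14.5, 14 and 14.6 FPKM in KO, against 4.61, 5.39 and 4.95 FPKM in WT retina, among the tightest groups of all rises (log2 1.51, SE 0.133, adjusted p = 1.59e-04). In KI retina, where 39 genes were called against the same WT libraries (0.265%), Ift57 was called too, at 11.5 ± 2.05 FPKM (log2 1.18 against WT, adjusted p = 0.00192). Cldn1, a tight junction protein, stood at 1.21, 2.33 and 2.29 FPKM in KO, against 0.574, 0.394 and 0.669 FPKM in WT retina (log2 1.78, adjusted p = 0.0403), and its call was lost without KO library 1, KO library 2, WT library 0, WT library 1 or WT library 2 (highest adjusted p = 0.183). With a term for lens content its adjusted p was 0.275. The other 13 claudins and tight junction genes tested were not called.

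**Figure D2:**
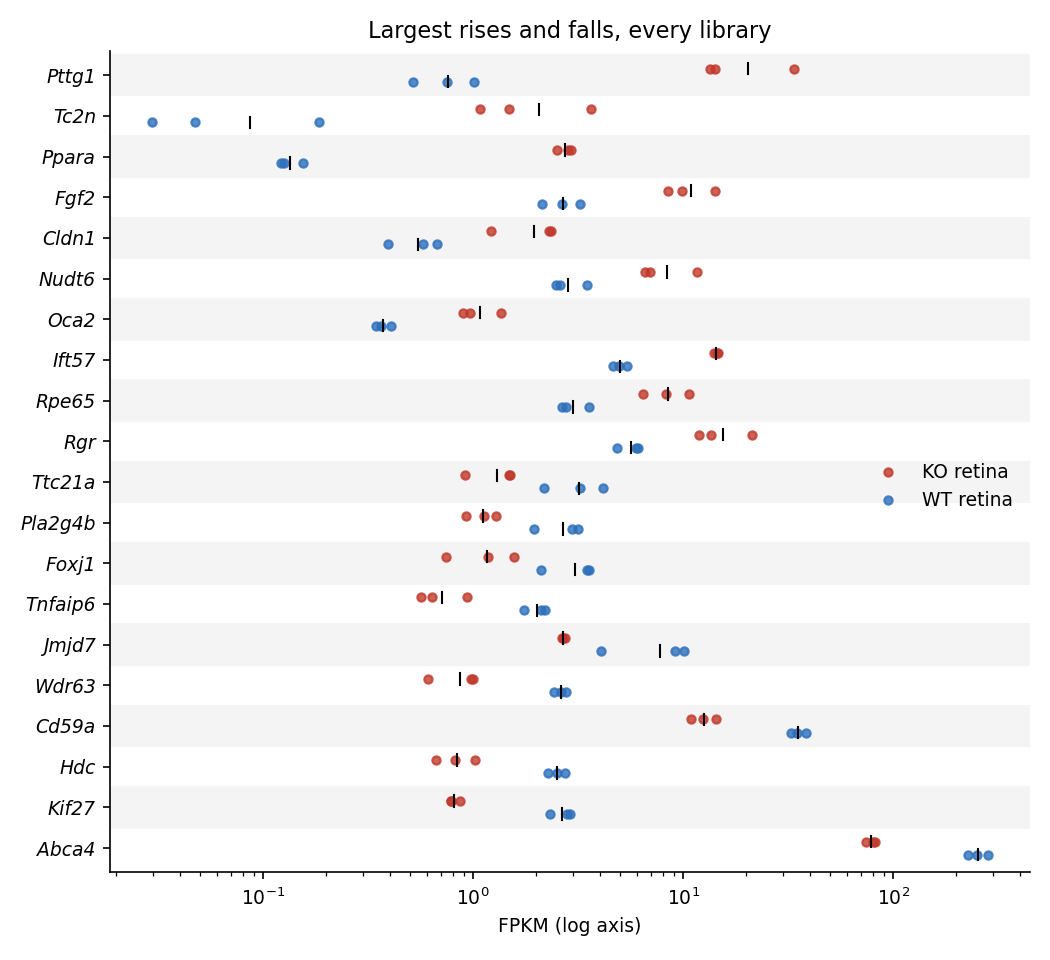
FPKM (x axis, log scale) in each of the 3 KO (red, upper row of each gene) and 3 WT (blue, lower row) retinal libraries for the 10 largest rises and the 10 largest falls that met the naming rule, sorted by log2 fold change; black bars mark the mean of 3 libraries. KO and WT points do not overlap for any gene drawn, as the rule required, and Abca4 has the highest level of all.

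Among the smallest p-values were further rises, of 1.57-fold to 5.10-fold. Stau2, a double-stranded RNA binding protein that transports mRNA in neurons, stood at 27.6, 27.8 and 37.5 FPKM in KO, against 17.3, 18.2 and 23.4 FPKM in WT retina (log2 0.65, SE 0.0594, adjusted p = 7.52e-05), and it was called in KI retina too, at 29.5 ± 5.43 FPKM (log2 0.56 against WT, adjusted p = 4.25e-04). Piwil2, a germline protein that binds piRNAs, stood at 0.815, 0.772 and 0.780 FPKM in KO, against 0.128, 0.118 and 0.223 FPKM in WT retina (log2 2.35, adjusted p = 0.00115). Both groups are below 1 FPKM but do not overlap. Folh1, a glutamate carboxypeptidase, stood at 10.4, 12.6 and 17.4 FPKM in KO, against 6.31, 6.92 and 8.14 FPKM in WT retina (log2 0.88, adjusted p = 0.00222). Cetn4, a centrin of ciliary and basal body structures, stood at 6.45, 8.05 and 12.1 FPKM in KO, against 2.91, 3.65 and 4.19 FPKM in WT retina. The difference was log2 1.24, SE 0.147, adjusted p = 7.98e-04. For Stau2, Folh1 and Cetn4 the highest FPKM was in library 2 of KO, WT and KI retina alike. In WT retina, however, the share of all fragments was not highest in library 2 for any of them. Folh1, for example, had 376, 330 and 260 fragments there, in libraries of 15758015, 13457472 and 11553291 fragments. The KO libraries of Piwil2 differ by little. The entry Rps4y2, a ribosomal protein gene copy, averaged 44.2 ± 6.82 FPKM in KO and 27.4 ± 4.14 FPKM in WT retina (log2 0.76, adjusted p = 6.06e-04), and reads of near-identical ribosomal copies may be split uncertainly.

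Some genes of motile cilia fell in KO retina. Motile cilia beat by dynein arms on an axoneme that the transcription factor FOXJ1 and RFX factors switch on; photoreceptors carry a sensory cilium without these arms. Of 43 tested members of the motile cilium and Foxj1 list, 6 fell and 0 rose, with median log2 -0.37 against -0.0032 for all genes tested, while 37 did not pass; 34 were below 0 and 9 above it, up to log2 0.55. At an unadjusted p under 0.05 stood 16 of the 43. Without 1 library, 4 to 8 members were called lower, and DESeq2 called 9. In 16 members every KO library lay under every WT library, where 5.17% of all tested genes did so.

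Foxj1 itself stood at 1.56, 1.18 and 0.740 FPKM in KO, against 3.56, 3.49 and 2.10 FPKM in WT retina. The change was log2 -1.37, SE 0.177, adjusted p = 0.00175. Kif27, a kinesin needed for motile cilia in mice, stood at 0.866, 0.784 and 0.787 FPKM in KO, against 2.32, 2.79 and 2.88 FPKM in WT retina (log2 -1.66, SE 0.139, adjusted p = 3.40e-05), one of the most even falls in the data. Wdr63, a part of inner dynein arms, stood at 0.996, 0.979 and 0.607 FPKM in KO, against 2.61, 2.44 and 2.77 FPKM in WT retina. Its fitted change was log2 -1.50, SE 0.199, adjusted p = 0.00222. In these 3 genes the KO libraries keep 30.5% to 38.0% of the WT mean. Ttc21a, the paralogue of an intraflagellar transport gene, stood at 1.5, 1.47 and 0.916 FPKM in KO, against 3.23, 4.13 and 2.16 FPKM in WT retina. This gave log2 -1.25, SE 0.181, adjusted p = 0.00421. Foxj1 and Ttc21a were lowest in library 2 of each genotype, and neither gene's groups overlap. Ccdc65, a part of the axonemal regulatory complex, averaged 5.18 ± 0.0902 FPKM in KO and 8.04 ± 0.712 FPKM in WT retina (log2 -0.59, adjusted p = 0.0411), a call lost without KO library 1, KO library 2, WT library 0 or WT library 1 (highest adjusted p = 0.176). Dnahc7b, an inner arm dynein heavy chain, averaged 4.21 ± 0.727 FPKM in KO and 5.34 ± 0.0613 FPKM in WT retina (log2 -0.38, adjusted p = 0.0482), a call lost without KO library 0, KO library 1, KO library 2, WT library 0 or WT library 1 (highest adjusted p = 0.212). With a term for lens content 4 members were called, with a term for sex 4 and with a term for RPE content 2, and the part of these contents in the falls was not tested further. In KI retina the values of Foxj1, Kif27 and Wdr63 against the same WT libraries were log2 -0.20, -0.25 and 0.15, and none of these was called. Dnahc7b was called there too, at log2 -0.46.

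Other axonemal genes lay in the same direction without passing. Iqcg stood at 9.49, 9.80 and 10.6 FPKM in KO, against 11.5, 12.4 and 13.4 FPKM in WT retina (adjusted p = 0.0563), the dynein intermediate chain Dnaic2 at 2.76, 2.61 and 2.33 FPKM in KO, against 4.15, 3.59 and 3.96 FPKM in WT retina (adjusted p = 0.0729) and Ccdc113 at 9.19, 7.97 and 10.6 FPKM in KO, against 10.8, 12.7 and 14.7 FPKM in WT retina (adjusted p = 0.0996). KO lay below WT in each library of all 3. The RFX genes did not: Rfx3 stood at 8.01, 7.99 and 10.3 FPKM in KO, against 8.53, 8.24 and 8.98 FPKM in WT retina and was not called, nor was Rfx2, where KO library 0 alone was high.

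RFX factors bind promoters of cilium genes, so GTTGCC, letters of part of their motif, was counted on both strands from 250 bases before to 50 after each start (RefSeq, GRCm38.p6, which is a later build than that of the files). It was present in 18 of the 38 list members with a window (47.4%), against 14.8% of 11579 tested genes with one. Of the 5 members that fell and had a window, 2 held it: Dnahc7b, from position -163, and Ttc21a, from position +7, counted from the start site. Over all genes called, 9 of 56 higher genes (16.1%) and 11 of 64 lower genes (17.2%) held it. TGTTTAC, a forkhead letter string, was in 1 of the 38 members (2.63%) and in 3.02% of the tested genes. The DR1 repeat that PPAR and RXR bind was in 0.0432% of tested genes and in 0 called ones. A match is a description and not a site. The windows of 4 members that fell are shown 5′ to 3′, 2 with the hexamer in capitals and 2 without it (Dnahc7b chr1:46066603-46066902, + strand; Ttc21a chr9:119937356-119937655, + strand; Kif27 chr13:58354898-58355197, - strand; Wdr63 chr3:146107987-146108286, - strand).
Dnahc7b: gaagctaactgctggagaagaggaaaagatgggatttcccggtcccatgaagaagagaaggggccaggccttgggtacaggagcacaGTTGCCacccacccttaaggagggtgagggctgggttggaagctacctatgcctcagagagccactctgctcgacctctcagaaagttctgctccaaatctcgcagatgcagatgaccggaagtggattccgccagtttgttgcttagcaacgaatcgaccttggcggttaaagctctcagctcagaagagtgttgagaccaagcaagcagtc
Ttc21a: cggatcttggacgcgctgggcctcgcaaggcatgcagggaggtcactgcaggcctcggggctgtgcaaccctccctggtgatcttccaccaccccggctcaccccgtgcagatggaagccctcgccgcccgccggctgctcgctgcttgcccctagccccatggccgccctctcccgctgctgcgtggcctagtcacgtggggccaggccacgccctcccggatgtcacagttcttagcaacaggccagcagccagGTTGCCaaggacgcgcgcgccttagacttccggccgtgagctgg
Kif27: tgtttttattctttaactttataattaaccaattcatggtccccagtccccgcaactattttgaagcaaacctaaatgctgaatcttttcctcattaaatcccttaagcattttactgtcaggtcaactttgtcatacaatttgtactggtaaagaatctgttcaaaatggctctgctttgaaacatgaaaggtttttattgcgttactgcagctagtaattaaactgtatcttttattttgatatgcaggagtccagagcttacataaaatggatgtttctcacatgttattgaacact
Wdr63: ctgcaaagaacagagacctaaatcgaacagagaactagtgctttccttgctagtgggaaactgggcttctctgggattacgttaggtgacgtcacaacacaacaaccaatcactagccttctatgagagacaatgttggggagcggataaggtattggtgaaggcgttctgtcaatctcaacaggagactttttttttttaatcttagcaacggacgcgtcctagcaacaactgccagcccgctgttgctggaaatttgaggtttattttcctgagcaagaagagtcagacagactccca

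Among genes of the sensory cilium no fall was called. Of 38 tested intraflagellar transport and BBS genes, 3 rose and 0 fell, while the rest lay between log2 -0.23 and 0.37 (median log2 -0.070). Beside Ift57, these were Bbs7, a subunit of the BBSome coat that sorts ciliary membrane proteins, at 43.0, 54.0 and 69.0 FPKM in KO, against 33.4, 32.1 and 39.4 FPKM in WT retina (log2 0.64, SE 0.0832, adjusted p = 0.00222), and Bbs12, a chaperonin-like factor for BBSome assembly, at 16.8, 17.5 and 22.1 FPKM in KO, against 14.2, 13.3 and 14.3 FPKM in WT retina (log2 0.37, adjusted p = 0.0324). The call of Bbs12 was lost without KO library 1, KO library 2, WT library 1 or WT library 2 (highest adjusted p = 0.148). Both lie in a run of called genes on chromosome 3 described below. Of the 38 genes, 29 lay below 0 and 9 above it. At an unadjusted p under 0.05 stood 11 of them, where 12.5% of all tested genes did so. In 5 every KO library lay under every WT library and in 4 above, and DESeq2 called 4 higher and 0 lower.

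Further falls concerned histamine, complement control and peptide processing. Hdc, the enzyme that makes histamine, stood at 0.666, 0.823 and 1.02 FPKM in KO, against 2.26, 2.51 and 2.75 FPKM in WT retina (log2 -1.59, SE 0.225, adjusted p = 0.00295), and this gene was called in KI retina too, at 0.526 ± 0.0278 FPKM (log2 -2.23 against WT, adjusted p = 4.25e-04). It was the 1 histamine gene of 7 tested that was called, and the receptors Hrh1, Hrh2 and Hrh3 and the degrading enzyme Hnmt were not. Cd59a, which blocks the membrane attack complex of complement, stood at 10.9, 12.4 and 14.3 FPKM in KO, against 32.5, 34.9 and 38.3 FPKM in WT retina. The test gave log2 -1.55, SE 0.234, adjusted p = 0.0352. Its groups are far apart, yet its call was lost without any 1 of the 6 libraries (highest adjusted p = 0.169), and KI retina stood at 15.6 ± 4.41 FPKM (log2 -1.19 against WT, adjusted p = 0.145). The KI libraries share the WT libraries with this comparison. Tnfaip6, a hyaluronan binding protein of inflammation, averaged 0.711 ± 0.196 FPKM in KO and 2.02 ± 0.242 FPKM in WT retina (log2 -1.44, adjusted p = 0.0353), a call lost without KO library 1, KO library 2, WT library 0, WT library 1 or WT library 2 (highest adjusted p = 0.169).

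Qpct, which caps peptides with pyroglutamate, stood at 47.1, 49.9 and 47.3 FPKM in KO, against 73.7, 76.8 and 88.0 FPKM in WT retina. The difference was log2 -0.74, SE 0.0657, adjusted p = 6.01e-05. Hunk, a protein kinase, stood at 10.6, 10.8 and 10.5 FPKM in KO, against 16.8, 16.6 and 15.9 FPKM in WT retina. The change was log2 -0.62, SE 0.0597, adjusted p = 1.28e-04. KO libraries of both genes are nearly equal and lie well under WT. Hunk was called in KI retina too, at 12.8 ± 0.459 FPKM (log2 -0.34 against WT, adjusted p = 0.0260). Tm7sf3, a membrane protein, averaged 25.6 ± 1.28 FPKM in KO and 34.3 ± 2.00 FPKM in WT retina (log2 -0.46, adjusted p = 6.06e-04). Ccdc115, a factor of the proton pump of endosomes, averaged 21.7 ± 0.0475 FPKM in KO and 33.5 ± 2.03 FPKM in WT retina (log2 -0.64, adjusted p = 5.35e-04), and was called in KI retina too, at 21.1 ± 2.47 FPKM (log2 -0.68 against WT, adjusted p = 4.25e-04). Pla2g4b, a phospholipase, and Jmjd7, a hydroxylase whose locus ends shortly before it on chromosome 2, averaged 1.11 ± 0.178 FPKM in KO and 2.68 ± 0.650 FPKM in WT retina and 2.69 ± 0.0407 FPKM in KO and 7.74 ± 3.24 FPKM in WT retina. The fall was called for Pla2g4b (log2 -1.25, adjusted p = 0.00175) and for Jmjd7 (log2 -1.48, adjusted p = 0.0123), where WT library 2 was lower than the other two and the call was lost without KO library 1, WT library 0 or WT library 1 (highest adjusted p = 0.0935). Transcripts that run through both neighbours are known, so the split of fragments between them is uncertain.

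Of the photoreceptor lists below, 3 genes were called. None of the 20 rod phototransduction genes tested was called by edgeR (median log2 -0.075, range -0.24 to 0.30); 5 had an unadjusted p under 0.05 and DESeq2 called 1 lower. Gnat1, the rod transducin subunit, stood at 3887, 3992 and 3816 FPKM in KO, against 4033, 3935 and 4520.4 FPKM in WT retina, and Pde6b, a subunit of the rod phosphodiesterase, at 749, 800.5 and 880.4 FPKM in KO, against 830.0, 802 and 841 FPKM in WT retina. Guca1a, the calcium sensor of guanylate cyclase, stood above WT in all KO libraries, at 769, 903 and 907 FPKM in KO, against 701, 749 and 709.6 FPKM in WT retina, and did not pass (log2 0.30, adjusted p = 0.255).

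Of 12 cone genes, 1 rose and 1 fell (median log2 0.16), 4 had an unadjusted p under 0.05, and DESeq2 called 2 higher and 1 lower. The rise was that of Slc24a2, the cone sodium, calcium and potassium exchanger, at 11.2, 11.5 and 13.7 FPKM in KO, against 8.68, 9.80 and 11.1 FPKM in WT retina (log2 0.27, adjusted p = 0.0352), and its call was lost without KO library 1, KO library 2, WT library 0, WT library 1 or WT library 2 (highest adjusted p = 0.163). The fall was that of Kcnv2, a potassium channel subunit of rods and cones, at 138, 125 and 138 FPKM in KO, against 160.1, 159.9 and 168 FPKM in WT retina (log2 -0.30, adjusted p = 0.0289), a call lost without KO library 1, KO library 2, WT library 0, WT library 1 or WT library 2 (highest adjusted p = 0.165). The short-wave opsin Opn1sw stood at 265, 269 and 272 FPKM in KO, against 215, 219.7 and 227 FPKM in WT retina; the groups do not overlap but the gene was not called (log2 0.25, adjusted p = 0.120). Among 26 genes of photoreceptor structure and identity, 1 fell and 0 rose (median log2 -0.077), 10 had an unadjusted p under 0.05, and DESeq2 called 1 lower. The fall was that of Fscn2, an actin bundling protein, which averaged 53.3 ± 7.10 FPKM in KO and 65.3 ± 8.67 FPKM in WT retina (log2 -0.28, adjusted p = 0.0466), with overlapping libraries and a call lost without any 1 of the 6 libraries (highest adjusted p = 0.176). Impg2, a proteoglycan of the matrix around outer segments, stood at 159, 126 and 166 FPKM in KO, against 91.6, 91.0 and 120.0 FPKM in WT retina and did not pass (log2 0.54, adjusted p = 0.172).

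None of the 73 genes of the photoreceptor synapse and of bipolar, amacrine, ganglion and horizontal cells was called by edgeR, with a median log2 of -0.028 and a range of -0.33 to 0.31. In these lists 2, 1, 3, 1 and 0 genes had an unadjusted p under 0.05, and DESeq2 called 1 gene of the synapse list. Among the other members of subfamily A of the ABC transporters, none of 11 tested was called; 4 had an unadjusted p under 0.05 and DESeq2 called 1 lower. The most abundant, Abca8a, stood at 52.3, 45.4 and 45.6 FPKM in KO, against 57.1, 59.5 and 64.0 FPKM in WT retina and did not pass (log2 -0.35, adjusted p = 0.124).

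**Figure D3:**
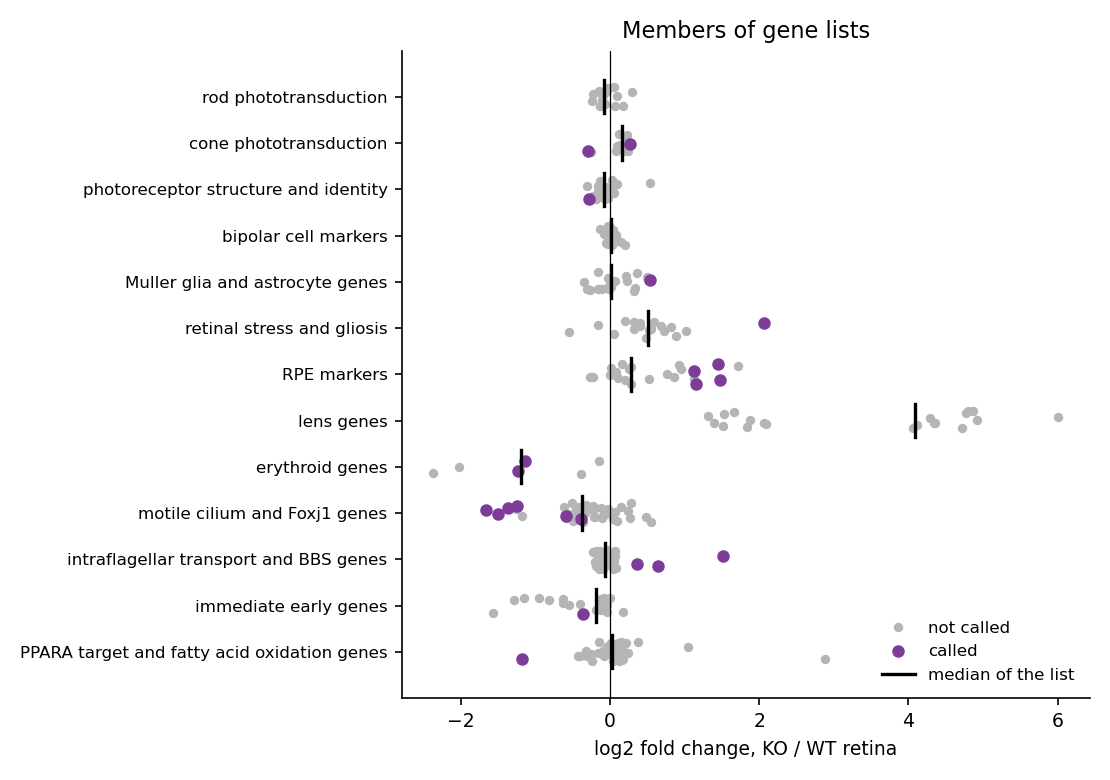
Log2 fold change of KO over WT retina (x axis) for the tested members of 13 gene lists (rows); purple points are called genes, grey points genes not called, and black bars the median of each list. Rod, bipolar and intraflagellar transport genes lie mostly near 0, motile cilium and erythroid genes mostly below it, and lens genes all above it with 0 called.

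Of 19 genes of Müller glia and astrocytes, 1 rose and 0 fell, 10 had an unadjusted p under 0.05, and DESeq2 called 2 higher and 2 lower. Clu, clusterin, a secreted chaperone that also holds back complement, stood at 422, 389 and 378 FPKM in KO, against 271, 287 and 269 FPKM in WT retina. Its fitted change was log2 0.54, SE 0.0678, adjusted p = 0.00142. The other 18 were not called, among them the Müller enzyme Glul, at 1324, 1373 and 1233 FPKM in KO, against 1314, 1296 and 1244 FPKM in WT retina. Among genes of retinal stress and gliosis, Fgf2 alone of 18 was called, with median log2 0.51 and 16 members above 0. At an unadjusted p under 0.05 stood 10 of these 18, and DESeq2 called 3 higher. Several of its members were highest in KO library 0: Stat3, which relays cytokine signals, stood at 34.5, 18.3 and 19.8 FPKM in KO, against 16.5, 16.7 and 16.3 FPKM in WT retina and A2m, a protease inhibitor, at 5.69, 3.21 and 3.88 FPKM in KO, against 3.00, 2.56 and 3.03 FPKM in WT retina, and neither passed. C4b, a complement component, stood at 5.13, 4.6 and 3.12 FPKM in KO, against 2.33, 2.31 and 2.27 FPKM in WT retina (adjusted p = 0.231). Complement genes had 1 rise (Clu) and 1 fall (Cd59a) among 18, with 6 at an unadjusted p under 0.05, and DESeq2 called 2 higher and 1 lower. No microglia or macrophage gene of 20 was called by edgeR (median log2 0.36; 8 at an unadjusted p under 0.05, DESeq2 1 higher), and none of 25 interferon and MHC class I genes (median log2 0.25; 4 at an unadjusted p under 0.05, DESeq2 0).

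Immediate early genes, which neurons switch on within minutes of stimulation, had 1 fall and 0 rises among 21 (median log2 -0.19, 19 below 0). The fall was that of Btg2, an antiproliferative factor, at 40.4, 36.1 and 35.2 FPKM in KO, against 48.1, 48.7 and 42.6 FPKM in WT retina (log2 -0.36, adjusted p = 0.0112), and its call was lost without KO library 1 or WT library 1 (highest adjusted p = 0.0913). Fos stood at 25.3, 20.4 and 13.9 FPKM in KO, against 28.0, 27.6 and 35.7 FPKM in WT retina and did not pass (log2 -0.63, adjusted p = 0.442). KO libraries lay under WT for both. In 7 of the 21 every KO library lay under every WT library, where 5.17% of all tested genes did so. An unadjusted p under 0.05 was found for 5 of the 21, and DESeq2 called 2 lower and 0 higher.

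Some RPE genes were higher in KO retina. Of 23 RPE markers tested, 4 rose, 0 fell and 19 did not pass (median log2 0.28), and with 1 library left out 1 to 5 were called. At an unadjusted p under 0.05 stood 11 of the 23, and DESeq2 called 7 higher and 1 lower. Rpe65, the isomerase that makes 11-cis retinol, stood at 10.7, 6.44 and 8.27 FPKM in KO, against 2.76, 2.65 and 3.56 FPKM in WT retina. This gave log2 1.48, SE 0.184, adjusted p = 0.00222. Rgr, a retinal G protein coupled receptor of the RPE and Müller cells, stood at 21.2, 11.9 and 13.5 FPKM in KO, against 6.06, 4.83 and 5.97 FPKM in WT retina (log2 1.44, SE 0.214, adjusted p = 0.0178), and its call was lost without WT library 0, WT library 1 or WT library 2 (highest adjusted p = 0.127). Lrat, which esterifies retinol, averaged 1.41 ± 0.386 FPKM in KO and 0.658 ± 0.0994 FPKM in WT retina (log2 1.12, adjusted p = 0.0288, lost without KO library 1, WT library 0, WT library 1 or WT library 2, highest adjusted p = 0.144), and the amino acid transporter Slc6a20a 2.27 ± 0.556 FPKM in KO and 1.01 ± 0.236 FPKM in WT retina (log2 1.16, adjusted p = 0.0238). Its call was lost without KO library 1, WT library 0, WT library 1 or WT library 2 (highest adjusted p = 0.0941). Each KO library was above each WT library for all 4, and KO library 0 was the highest. In RPE/choroid these genes were far more abundant and changed little, for example Rpe65 at 1043 ± 128 FPKM in KO and 1181 ± 106 FPKM in WT RPE/choroid (log2 -0.14, SE 0.111, adjusted p = 0.580).

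The mean log2 CPM (counts scaled to library size) of the RPE list was 4.30, 3.97 and 3.99 in KO retina and 3.58, 3.51 and 3.58 in WT retina, with no overlap. It was 3.91, 3.93 and 3.84 in KI retina, where the list's median log2 against the same WT libraries was 0.28. The summed FPKM of the list was 647, 608 and 547 FPKM in KO retina and 576, 559 and 571 FPKM in WT retina, and these groups overlap, with KO library 2 below every WT library. With the mean log2 CPM as a term in the fit, on 14676 genes, 37 genes were called, 11 of them among the 144. The part of RPE content in the other results was not tested further, since this mean and genotype cannot be told apart where they do not overlap. Ppara, Abca4, Kif27 and Tc2n kept their calls with the term, with adjusted p of 4.89e-05, 0.00123, 0.0190 and 0.0180. Fgf2 did not (adjusted p = 0.371).

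Of 10 pigment cell genes tested, 2 rose and 0 fell (median log2 0.78). An unadjusted p under 0.05 was found for 6 of the 10, and DESeq2 called 4 higher and 0 lower. Oca2, a melanosome transporter, stood at 0.964, 1.35 and 0.896 FPKM in KO, against 0.343, 0.363 and 0.405 FPKM in WT retina (log2 1.54, adjusted p = 0.0133, lost without KO library 1, WT library 0 or WT library 1, highest adjusted p = 0.0861), and Gpnmb, a melanosome and lysosome glycoprotein, averaged 2.53 ± 0.321 FPKM in KO and 1.43 ± 0.375 FPKM in WT retina (log2 0.83, adjusted p = 0.0411). This call was lost without KO library 1, KO library 2, WT library 0 or WT library 1 (highest adjusted p = 0.201). Of 27 genes of the extracellular matrix of choroid, Col8a2, a collagen, alone was called, averaging 2.01 ± 0.800 FPKM in KO and 0.932 ± 0.0674 FPKM in WT retina (log2 1.02, adjusted p = 0.0428). The call was lost without KO library 0, KO library 1, KO library 2, WT library 0 or WT library 1 (highest adjusted p = 0.211). Among endothelium and pericyte genes Flt1, a VEGF receptor, was the 1 called of 19, averaging 11.1 ± 0.608 FPKM in KO and 8.75 ± 0.479 FPKM in WT retina (log2 0.35, adjusted p = 0.0128). As a call it was lost without KO library 1 (adjusted p = 0.102). The lens list had 20 of 20 members above 0 (median log2 4.09) and 0 called by edgeR, with 1 at an unadjusted p under 0.05 and 2 called by DESeq2. The lens sum of KO library 0 lay under that of WT library 0. None of 7 genes of ciliary body and iris or of 4 of corneal and conjunctival epithelium was called by edgeR (2 and 0 at an unadjusted p under 0.05) or by DESeq2.

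Of 6 erythroid genes tested, 2 fell, 0 rose and 4 did not pass (median log2 -1.19), and the list summed to 85.1, 63.6 and 70.3 FPKM in KO retina and 155, 136 and 144 FPKM in WT retina, with no overlap. The beta globin entry Beta-s stood at 48.7, 29.3 and 35.6 FPKM in KO, against 93.6, 65.2 and 85.7 FPKM in WT retina (log2 -1.14, adjusted p = 0.0482, lost without KO library 1, KO library 2, WT library 0 or WT library 2, highest adjusted p = 0.172). Alas2, the first enzyme of heme synthesis in red cells, averaged 0.637 ± 0.0756 FPKM in KO and 1.48 ± 0.205 FPKM in WT retina (log2 -1.23, adjusted p = 0.0236). Its call was lost without KO library 1, KO library 2, WT library 0 or WT library 2 (highest adjusted p = 0.112). Alpha globin genes are near-identical copies and their values are uncertain, as Hba-a1 shows with 13.2, 0.00110 and 0.344 FPKM in KO, against 0.0195, 39.6 and 26.2 FPKM in WT retina. In the skeletal muscle list Neb, the giant thin-filament protein, was the 1 of 10 called, averaging 0.0674 ± 0.0343 FPKM in KO and 0.169 ± 0.00726 FPKM in WT retina (log2 -1.41, adjusted p = 0.0319). This call was lost without KO library 1, WT library 0 or WT library 1 (highest adjusted p = 0.150).

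Of the visual cycle genes, 3 of 19 tested rose and 0 fell by edgeR (Rpe65, Rgr and Lrat), all 3 being also on the RPE list (median log2 0.14). At an unadjusted p under 0.05 stood 9 of the 19, and DESeq2 called 4 higher and 2 lower. Every KO library lay above every WT library for 6 of them and below for 3. The photoreceptor enzymes Rdh8 and Rdh12, which reduce retinaldehyde after its release, stood at 69.3, 63.0 and 66.7 FPKM in KO, against 84.3, 75.8 and 76.0 FPKM in WT retina and 209, 215 and 222 FPKM in KO, against 252, 244 and 343 FPKM in WT retina. KO lay under WT in all libraries of both, and neither was called (adjusted p = 0.283 and 0.172). Rlbp1, the retinaldehyde carrier of RPE and Müller cells, stood at 226, 232 and 182 FPKM in KO, against 257, 255 and 248 FPKM in WT retina and was not called (adjusted p = 0.101).

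Lysosome and phagocytosis genes had 2 rises (Itgav and Gpnmb) and 1 fall (Cd36) among 35 (median log2 0.090). Of the 35, 12 had an unadjusted p under 0.05, where 12.5% of all tested genes did so. DESeq2 called 4 higher and 1 lower, and without 1 library 0 to 5 were called higher. Itgav, an integrin subunit with which the RPE binds shed outer segments, averaged 17.1 ± 2.11 FPKM in KO and 12.1 ± 0.499 FPKM in WT retina (log2 0.45, adjusted p = 0.0144). The call was lost without KO library 2, WT library 1 or WT library 2 (highest adjusted p = 0.0879). Among 32 genes of the unfolded protein response Asns, asparagine synthetase, fell, averaging 25.3 ± 3.35 FPKM in KO and 35.3 ± 2.17 FPKM in WT retina (log2 -0.50, adjusted p = 0.0240). As a call it was lost without WT library 0, WT library 1 or WT library 2 (highest adjusted p = 0.0900). Among 17 genes of cell cycle and mitosis Pttg1 and Ccna2 rose. Of these 17, 6 had an unadjusted p under 0.05, and DESeq2 called 2 higher and 1 lower. Ccna2, cyclin A2, averaged 6.07 ± 1.84 FPKM in KO and 3.54 ± 0.246 FPKM in WT retina (log2 0.71, adjusted p = 0.0403). Its call was lost without KO library 1, KO library 2, WT library 0, WT library 1 or WT library 2 (highest adjusted p = 0.150). No gene was called by edgeR among 21 clock genes (5 at an unadjusted p under 0.05), 18 heat shock chaperones (3), 23 oxidative stress genes (5), 22 cholesterol synthesis genes (2), 23 cell death genes (1), 17 genes of very long chain lipids (3) or 14 retinoic acid genes (1), and DESeq2 called 0 in each of them.

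Of the 5 called genes with a mean of at least 100 FPKM in KO or WT, Abca4, Clu and Kcnv2 are given above. Dbi and Plekhb2 are given here, with other called genes of high level. Dbi, an acyl-CoA binding protein that glia secrete, stood at 223, 236 and 274 FPKM in KO, against 184, 184 and 191 FPKM in WT retina (log2 0.34, adjusted p = 0.0135, lost without WT library 1, adjusted p = 0.0939), and the phosphatase Nudt4 averaged 95.7 ± 11.8 FPKM in KO and 71.2 ± 4.25 FPKM in WT retina (log2 0.39, adjusted p = 0.0353). This call was lost without KO library 1, KO library 2, WT library 0, WT library 1 or WT library 2 (highest adjusted p = 0.169). Cnn3, an actin binding calponin, averaged 67.8 ± 2.11 FPKM in KO and 54.6 ± 0.847 FPKM in WT retina (log2 0.34, adjusted p = 0.00740). The call was lost without WT library 1 (adjusted p = 0.0588). Further falls were those of Plekhb2, an endosome protein, at 144 ± 11.2 FPKM in KO and 171 ± 7.72 FPKM in WT retina, Dgke, a diacylglycerol kinase, at 60.6 ± 1.75 FPKM in KO and 74.2 ± 1.08 FPKM in WT retina, and Tnfaip3, a brake on NF-kappaB signalling, at 65.6 ± 2.82 FPKM in KO and 79.3 ± 2.21 FPKM in WT retina. Grtp1 averaged 58.7 ± 4.33 FPKM in KO and 77.4 ± 3.42 FPKM in WT retina and Ddit4, an inhibitor of mTORC1, 51.6 ± 7.38 FPKM in KO and 67.6 ± 9.48 FPKM in WT retina. The calls of these 5 falls were at adjusted p of 0.0376, 0.0333, 0.0354, 0.0133 and 0.0192, and each was lost without 3 or more of the 6 libraries, with highest adjusted p of 0.159, 0.150, 0.202, 0.0836 and 0.124 (KO 1 and 2 and WT 1 for all, WT 0 for Plekhb2, Dgke and Tnfaip3, and WT 2 for Plekhb2, Tnfaip3 and Ddit4).

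Among called genes with clone symbols, 6430706D22Rik stood at 1.6, 1.41 and 1.69 FPKM in KO, against 6.04, 6.08 and 5.46 FPKM in WT retina (log2 -1.96, SE 0.115, adjusted p = 4.66e-07), and it was called in KI retina too, at 1.84 ± 0.138 FPKM (log2 -1.70 against WT, adjusted p = 2.89e-06). 5430419D17Rik averaged 7.11 ± 1.51 FPKM in KO and 3.60 ± 0.596 FPKM in WT retina (log2 0.99, adjusted p = 0.0482, lost without KO library 1, KO library 2, WT library 0, WT library 1 or WT library 2, highest adjusted p = 0.181) and stood lower than WT in KI retina, at 1.20 ± 0.287 FPKM (log2 -1.56 against WT, adjusted p = 0.0169). Gm5148 (log2 1.91, adjusted p = 0.00640) and Gm6548 (log2 1.13, adjusted p = 0.0400) were higher, and 1700007K13Rik (log2 -1.34, adjusted p = 0.0266) and 1700028K03Rik (log2 -0.63, adjusted p = 0.0424) were lower in KO. Of these 4 calls, that of Gm5148 was lost without WT library 1 (adjusted p = 0.0505), that of Gm6548 lost without any 1 of the 6 libraries (highest adjusted p = 0.187), that of 1700007K13Rik lost without KO library 1, KO library 2, WT library 0, WT library 1 or WT library 2 (highest adjusted p = 0.150) and that of 1700028K03Rik lost without KO library 1, KO library 2, WT library 0 or WT library 1 (highest adjusted p = 0.203).

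Called genes lay near each other on the chromosomes more often than other genes did. Of the 144, 55 (38.2%) had another called gene within 1 Mb at a locus that does not overlap, against 12.8% of the 14555 genes not called. This and the positions below were examined after the values were seen and are given as a description. Chromosome 3 had the most, 17 of 739 tested genes (2.30%), 14 of them higher. Runs of at least 3 called genes, each within 1 Mb of the next, numbered 8.

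The longest run spans chr3:35653060-37623282 in mm9 and holds 10 called genes of 21 tested, 9 higher and 1 lower. Fgf2, Nudt6, Cetn4, Bbs7, Bbs12, Ccna2 and Gm5148 are described above. The others, named because they complete the run, are Exosc9, an exosome subunit (log2 0.41), Gm11549 (log2 1.85) and, the 1 lower gene, Atp11b, a phospholipid flippase (log2 -0.41). The calls of Exosc9 and Gm11549 were each lost without any of KO libraries 1 and 2 and WT libraries 0, 1 and 2 (highest adjusted p = 0.176 and 0.185). That of Atp11b was lost without KO library 1, KO library 2, WT library 0 or WT library 1 (highest adjusted p = 0.159). Of the 10 calls, those of Fgf2, Nudt6, Cetn4 and Bbs7 held without each single library. Genes not called lie among the called ones: Spry1, at 0.29 Mb from the Fgf2 start, had log2 0.11 and Spata5, at 0.072 Mb, log2 0.055, and neither was called. Of the other 31 genes tested within 5 Mb of the Fgf2 start none was called. In KI retina none of the 21 genes was called, nor any of the 18 tested in KO against WT RPE/choroid. The 10 genes ranged from log2 -0.16 to 0.29 in KI retina, and the 8 tested besides Gm5148 (0.61) from -0.27 to 0.28 in KO RPE/choroid.

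**Figure D4:**
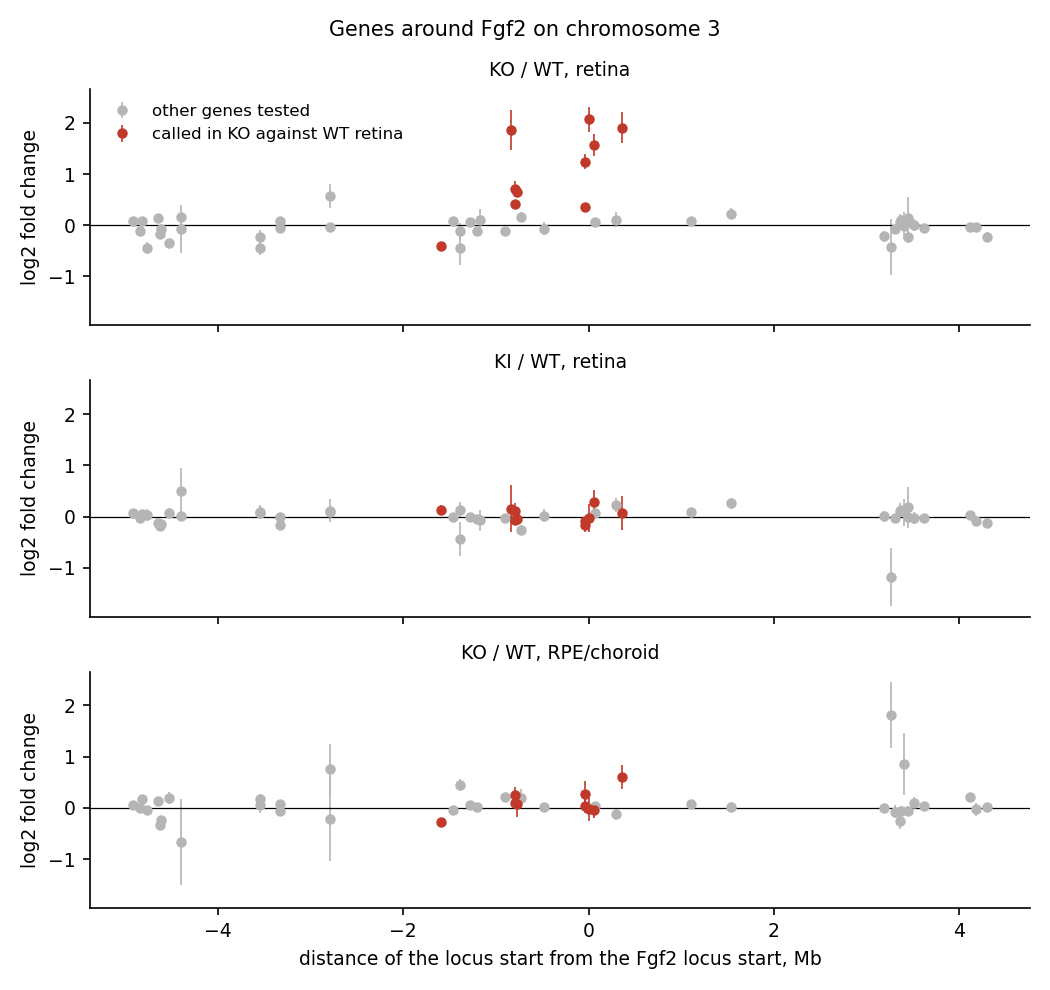
Log2 fold change with its SE (y axis) for genes tested within 5 Mb of Fgf2, by distance of the locus start from that of Fgf2 in Mb (x axis), for KO over WT retina (top), KI over WT retina (middle) and KO over WT RPE/choroid (bottom); red points are the 10 genes called in KO against WT retina. The red points stand away from 0 in the top panel and close to it in the middle one.

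Abca4 has called neighbours too. The run at chr3:121129459-122233100 holds Cnn3 (log2 0.34), Arhgap29, a GTPase regulator (log2 0.77), Abca4 (log2 -1.68) and Bcar3, an adaptor protein (log2 0.51), 4 of 9 genes tested. The call of Arhgap29 was lost without KO library 1 or WT library 0 (highest adjusted p = 0.0734), and Arhgap29 was called in KI retina too, at 3.13 ± 0.463 FPKM (log2 0.95 against WT, adjusted p = 0.00462). A run on chromosome 17 (chr17:79053304-79489583) holds 5 called genes of 10. Of these, Ccdc75, Gm6548 and Qpct were also called in RPE/choroid, with log2 -0.55, 1.09 and -0.50 there, against -0.45, 1.13 and -0.74 in retina.

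Of the 144 genes, 138 were tested in RPE/choroid, where KO and WT differed in 73 of 15454 genes (0.472%). Of these 138, 9 were called there (6.52%), all in the direction seen in retina. The 9 are 12.3% of all 73 calls in RPE/choroid, of which only 57 were tested in retina. The 9 genes are Pttg1, Qpct, Tuba1c, Ccdc75, Ppt1, Polr3d, Tnfaip6, Gm6548 and Hdhd3. Pttg1 stood at 58.1 ± 6.82 FPKM in KO and 5.65 ± 0.942 FPKM in WT RPE/choroid (log2 3.34, SE 0.151, adjusted p = 1.89e-05). Tuba1c, an alpha tubulin, averaged 21.8 ± 4.39 FPKM in KO and 44.5 ± 3.97 FPKM in WT retina and 43.3 ± 2.39 FPKM in KO and 68.6 ± 13.1 FPKM in WT RPE/choroid, and Ppt1, a lysosomal thioesterase, averaged 36.7 ± 5.28 FPKM in KO and 59.0 ± 6.33 FPKM in WT retina and 54.0 ± 11.9 FPKM in KO and 85.2 ± 13.2 FPKM in WT RPE/choroid. KO was lower in both tissues for both. The median change of the 138 genes was 0.61 in size in retina and 0.19 in the same direction in RPE/choroid. The difference of the knockout effect between the tissues passed for 10 of the 144, against 22 of all 16222 genes tested for it (0.136%). The 144 were chosen by their retinal change, which enters both the medians and this difference. A larger median in retina and a larger share passing among them therefore follow in part from that choice.

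**Figure D5:**
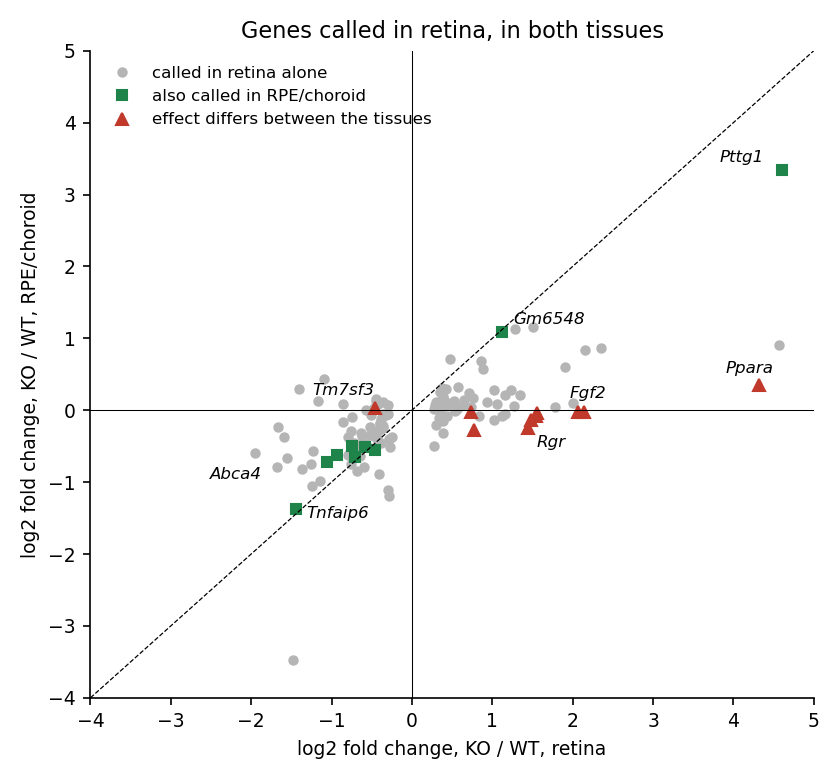
Log2 fold change of KO over WT in retina (x axis) and in RPE/choroid (y axis) for the 138 genes called in retina and tested in both tissues; the dashed line marks equal change. Green squares are the 9 genes called in both tissues and red triangles the 10 whose effect differs between them; Ppara lies near 0 on the y axis and Pttg1 near the line.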

How the data were processed

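Total RNA depleted of ribosomal RNA was read as 100 bp pairs. TopHat, Bowtie2, Cufflinks and the build mm9 are named in the submitters' processing notes, with no version; the annotation and any use of strand in counting are not given there. The deposited tables give, per the file headers, expected counts of fragments per gene before scaling and FPKM per library. Of the values 98.5% in retina and 98.4% in RPE/choroid were whole (tolerance 1e-06), and the others were rounded. The authors' comparison table gives p-values and q-values per the file headers: it calls 474 genes, and 106 of the 144 called here are among them (73.6% of these calls, 22.4% of theirs), with the same direction. Deposited transcript lengths (bases, per the file headers) were not used for results. Among the gene names of the retinal tables, 25 had become dates and were restored and 10 single estimates were marked as failed, none in a called gene. Values of KO and WT libraries gave no sign of a library deposited more than once (r of log2 CPM 0.979 to 0.991 within a genotype).

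The main test on counts was that of edgeR 4.0.16, run in R 4.3.3 (TMM, filterByExpr, robust quasi-likelihood), fitting the 9 libraries of a tissue together, and all 18 for the difference between tissues. Genes with a Benjamini-Hochberg adjusted p under 0.05 were called. Values with ± are means and SDs of 3 libraries. Tested on data simulated from these libraries for KO against WT retina (14529 genes), it recovered 68.7% of genes given a 1.5-fold change, 91.0% at 2-fold and 98.5% at 4-fold. Of its 182 calls there, 10 were wrong. The changed genes were drawn only from those above a minimum level in WT retina. Counts were drawn independently for each library, without the differences in lens content, RPE content or sex of the real libraries. These rates therefore do not cover genes of low level or the effect of such differences. Alternatives used DESeq2 1.42.0, RLE scaling, other filters, KO and WT libraries alone, the table number as a block, limma 3.58.1 on FPKM, terms for sex, lens and RPE content, and each library left out.

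The genes, 42 gene lists and tests were chosen with earlier results of these data known. Named were Abca4, the 10 largest rises and falls among called genes (no overlap in FPKM, mean FPKM of at least 1, without small RNA genes, clone symbols and sex-linked genes), the 10 next smallest p, the 10 next highest levels, up to 4 called members per list and 3 rises and 3 falls of clone symbols. List members that did not pass, and neighbours on a chromosome, were named after their values were seen. The table's library numbers 0 to 2 are not linked to the labels' numbers 1 to 3. Positions are loci as the tables give them, so overlapping genes share one. Some genes are not reported here.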

Additional observations from a re-analysis of the deposited data

Results flagged for a closer look

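The effect of the knockout differed between retina and RPE/choroid, by the test of the difference itself in a fit of all 18 libraries, for 10 of the 144 genes called in retina. Of all 16222 genes tested for it, 22 passed (0.136%). The 144 were chosen by their retinal change, which is part of this difference, so these shares are not comparable. All KO and WT RPE/choroid libraries were male by Xist and Ddx3y, while KO and WT retina held both sexes. The fit of all 18 libraries had no term for sex, and the part of sex in the differences was not tested. For 9 of the 10 the retinal effect was the more positive. The difference, retina minus RPE/choroid on the log2 scale, was largest for Ppara (log2 3.96, SE 0.164, adjusted p = 6.97e-10). It was log2 2.17, SE 0.338, adjusted p = 0.0150 for Cftr, a chloride channel, which averaged 0.294 ± 0.0676 FPKM in KO and 0.0681 ± 0.0299 FPKM in WT retina. It was log2 2.08, SE 0.344, adjusted p = 0.0208 for Fgf2 and log2 1.59, SE 0.273, adjusted p = 0.0284 for its neighbour Nudt6, and Fgf2 stood at 7.05 ± 0.961 FPKM in KO and 7.17 ± 1.46 FPKM in WT RPE/choroid. Genes of pigment epithelium followed, with log2 1.67, SE 0.239, adjusted p = 0.00976 for Rgr, log2 1.62, SE 0.253, adjusted p = 0.0158 for Oca2 and log2 1.61, SE 0.220, adjusted p = 0.00565 for Rpe65. Arhgap29 (log2 1.03, SE 0.162, adjusted p = 0.0150) and Spata6, a sperm flagellum protein (log2 0.74, SE 0.139, adjusted p = 0.0475), complete the positive ones. Tm7sf3 was the 1 gene with a negative difference (log2 -0.50, SE 0.0569, adjusted p = 7.76e-04), lower in KO retina and at 58.0 ± 6.56 FPKM in KO and 56.1 ± 6.23 FPKM in WT RPE/choroid.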

How the results depend on the processing

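Against 144 calls (71 higher, 73 lower), 145 were made under RLE scaling, 175 with no filter on low counts, 130 among genes with a mean FPKM of at least 1, 161 with KO and WT libraries alone and 147 with a term for sex, each within 1.5 times. DESeq2 called 327 genes (182 higher, 145 lower), 142 of them shared. Fewer calls came from limma on log2(FPKM + 1), 29 (14 higher, 15 lower), limma on log2(FPKM + 0.1), 27 (13 and 14), a term for lens content, 53 (25 and 28), and a term for RPE content, 37 (22 and 15). Without 1 library, 53 to 253 genes were called, 23 to 150 higher and 30 to 103 lower. The lowest and highest of these counts shared 50 and 117 genes with the 144. The causes were not tested. Abca4 was called lower in every setting, with log2 of -1.81 to -1.62.

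In log2 CPM, KO and WT libraries of the same table number showed no pairing (correlations of their deviations 0.044, -0.086 and 0.118). The FPKM of some genes did follow the number in every genotype. Ddr1 stood at 37.9, 37.8 and 25.4 FPKM in KO, against 32.4, 31.5 and 21.4 FPKM in WT retina. In KI retina it stood at 31.7, 31.2 and 23.0 FPKM. WT library 2 held 939 Ddr1 fragments of 11553291 and WT library 0 held 1213 of 15758015. As a share of fragments Ddr1 was therefore not lower in WT library 2 than in WT library 0. The correlations do not cover such a pattern in FPKM, and its source was not tested. With the number as a replicate block 194 genes were called (93 higher, 101 lower), 128 of them shared. None of the named genes changed direction in any setting. With the block 9 of 62 besides Abca4 lost their call, with a term for sex 8, with lens content 35 and with RPE content 52 of 58. With limma on log2(FPKM + 1) 44 of the 62 lost it, and on log2(FPKM + 0.1) 43. Leaving out 1 library lost from 5 (KO library 0) to 34 (WT library 1). Calls in RPE/choroid among the 144 stayed at 9 with RLE scaling and without a filter, and differences between tissues at 10 and 9. With 3 libraries a genotype and 11553291 to 21663347 fragments a library, changes under 1.5-fold are found incompletely.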
